A study of Homo sapiens with 8 samples.

Results

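The transcriptional response to switching on USP6 was measured in RD-ES cells, a Ewing sarcoma line, by comparing cells given doxycycline alone with untreated cells. All genes of the table were compared in the 4 libraries that carry these labels, 2 per group, out of 8 libraries in the study. Of 22257 gene symbols, 14601 had enough reads to be tested.

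USP6 is a ubiquitin-specific protease of hominoid primates that arose from the fusion of an ancestral TBC1D3 gene with USP32, and its rearrangement drives aneurysmal bone cyst and nodular fasciitis. Interferon alpha binds its receptor on the cell surface, the Janus kinases JAK1 and TYK2 then phosphorylate STAT proteins, and a complex of these with IRF9 binds interferon-stimulated response elements in the promoters of antiviral genes. NF-kB is a family of transcription factors held in the cytoplasm by inhibitors such as the product of NFKBIA, and it drives genes for chemokines and adhesion molecules through kappa-B sites.

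The cells were a pool, not a clone, in which a stably introduced USP6 gene was under the control of doxycycline. All groups carried that gene. Untreated cells received neither agent, and the group compared with them received doxycycline alone. The remaining groups received interferon alpha alone at 1000 U/mL for 24 h, or doxycycline for 24 h and then interferon alpha at the same dose and time. The labels leave out the time on doxycycline for cells that got no interferon. Because doxycycline-treated cells lacking the introduced gene were not analysed here, an effect of the drug and an effect of USP6 cannot be told apart. It is also not stated whether replicates were grown separately, and a p-value here reflects the spread between libraries only, which may be technical.

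Libraries held between 9304569 and 11984196 reads in the rows used, so that 3 reads in a library equalled between 0.25 and 0.322 CPM (reads per library scaled to equal depth). The deviation of a library from each gene's mean was correlated across genes with GC content (Spearman's rho 0.58 and 0.12 for untreated replicates 1 and 2, -0.48 and 0.35 for doxycycline). The part of that trend in single results was not tested beyond a correction whose values stand beside the counts of calls. All 12 Ewing sarcoma markers were detected, with a summed level of 2483 and 2635 CPM in untreated and 2178 and 2149 CPM in doxycycline-treated cells, though CD99, the surface protein used to diagnose the tumour, stood between 2.24 and 2.89 CPM. Macrophage markers summed to between 7.07 and 9.51 CPM, endothelial markers to between 30.4 and 34 CPM and lymphocyte markers to between 8.34 and 11.1 CPM over the 4 libraries. TYROBP, C1QB, CLDN5, CD2 and MS4A1 had 0 reads in each of the 4.

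USP6 itself was read at 9.88 and 8.77 CPM in untreated cells and at 569 and 558 CPM with doxycycline. The groups lay far apart and the replicates close together. The rise was 60.4-fold, a log2 fold change of 5.92 ± 0.12 (standard error, SE; edgeR quasi-likelihood test with Benjamini-Hochberg adjustment over the genes tested, adjusted p = 3.6e-10). USP32, the parent gene with which USP6 shares sequence, stood at 101 and 102 CPM in untreated cells and at 115 and 122 CPM with doxycycline, and its log2 change of 0.22 ± 0.08 was not called (adjusted p = 0.28). Reads of near-identical stretches may be split between these genes, so the size of the USP6 change is uncertain to that extent.

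With doxycycline 105 genes rose and 14 fell at an adjusted p under 0.05, which is 0.719% and 0.0959% of the genes tested, or 0.815% together. The genes that rose had a median fold of 2.36. Of them 64 rose by more than 2-fold and 27 by more than 4-fold, while over all genes tested the median log2 change was 0.00. Lists of interferon-response genes held 61 of the 105. These lists were drawn up with earlier results of these data known, so their counts are a description. The call of 54 of the 105 held without each of the 8 libraries in turn, and none of the 14 lower calls did. The split of 105 higher and 14 lower became 323 and 220 with a correction for GC content and transcript length, 143 and 99 with DESeq2, and 147 and 60 without a filter on low counts. All 105 genes kept their call under the GC correction and 100 under DESeq2. With only the groups compared in the fit 68 kept it, with the replicate number as a block 92, and with a minimum of 1.5-fold 50. Of the 14 lower calls 11 were kept under the GC correction and 14 under DESeq2. With only the groups compared 6 of these were kept, with the block 9 and with the minimum fold 0.

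The genes that rose most, beside USP6, were a leukocyte adhesion molecule, a receptor of the TNF family, chemokines and antiviral effectors. Antiviral effectors are described first, then the sensors and signalling proteins of the interferon system, then adhesion molecules, chemokines and NF-kB subunits and inhibitors, and the genes of other pathways.

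The OAS proteins sense double-stranded RNA and make the 2-5A messenger of the antiviral RNA decay pathway. OAS2 stood at 1.61 and 2.33 CPM in untreated cells and at 40.5 and 40.8 CPM with doxycycline. It rose 20.4-fold, by 4.35 ± 0.16 on the log2 scale (edgeR adjusted p = 8.6e-08), and the doxycycline-treated libraries differed by far less than the distance between groups. OAS1 was read at 14.2 and 17.5 CPM without and at 91.8 and 86.9 CPM with doxycycline. Its log2 change was 2.49 ± 0.11. OAS3, the family member with 3 OAS domains, rose by 1.84 ± 0.17, and OASL, which acts on RIG-I signalling and lacks 2-5A synthesis, by 3.20 ± 0.31. Of the 5 genes on this list 4 rose, at a median of 2.49 against 0.00 for all genes tested.

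The dynamin-like MX GTPases block viral ribonucleoproteins. MX1 was at 8.26 and 6.98 CPM in untreated cells and at 83.8 and 80.1 CPM with doxycycline, and rose by 3.43 ± 0.12 (edgeR adjusted p = 8.6e-08). MX2 was at 0.95 and 0.805 CPM against 5.67 and 5.61 CPM, a change of 2.67 ± 0.22. Neither gene's groups overlapped, but this held for every gene called with doxycycline and so adds nothing to a call. The share of all genes tested whose groups did not overlap was not determined. IFIT proteins bind viral RNA that lacks the methyl marks of host caps. IFIT1 rose from 17.3 and 14.7 to 106 and 89.4 CPM (2.61 ± 0.15), IFIT3 by 2.61 ± 0.17 and IFIT2 by 2.32 ± 0.14, while IFIT5 was not called (0.52 ± 0.13, adjusted p = 0.13).

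Promoter stretches of IFIT1 and IFI6 are printed because matches to the interferon-stimulated response element recurred in this class of gene. They come from RefSeq on GRCh38.p14, another build than the hg19 of the counts, and run 5′ to 3′ on the gene's strand. Capitals mark matches on either strand to the response element, searched as GAAA, any 2 bases and GAAA again. Counted back from the annotated start site, the matches began at positions -116 and -103 for IFIT1 (chr10:89392487-89392549, + strand) and at -156, -115 and -93 for IFI6 (chr1:27672256-27672368, - strand).
IFIT1: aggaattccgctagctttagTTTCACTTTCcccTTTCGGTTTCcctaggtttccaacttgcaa
IFI6: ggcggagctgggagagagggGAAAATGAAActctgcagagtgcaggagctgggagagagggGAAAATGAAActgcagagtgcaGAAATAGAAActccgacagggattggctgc

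Among 44 other tested interferon-stimulated effectors 31 rose and none fell, at a median log2 change of 1.15. IFI6, a mitochondrial protein that opposes apoptosis, was at 28.4 and 23.8 CPM in untreated cells and at 158 and 150 CPM with doxycycline (2.56 ± 0.11, edgeR adjusted p = 5.4e-07). EPSTI1, first described as a stromal interaction gene of breast cancer, was at 0.665 and 0.447 CPM against 10.1 and 11.6 CPM, which was 19.2-fold higher. XAF1, which opposes the apoptosis inhibitor XIAP, was at 0.38 and 0.268 CPM against 2.5 and 2.72 CPM (2.97 ± 0.34). The doxycycline libraries lay above the untreated ones for all 3 genes. IFI44L rose by 2.36 ± 0.12 and its neighbour IFI44 by 1.32 ± 0.11. Viperin, encoded by RSAD2, makes a nucleotide that stops viral polymerases, and RSAD2 rose by 1.73 ± 0.19. TRIM22, a ubiquitin ligase, rose by 2.39 ± 0.20, and SAMD9 and SAMD9L, which restrict poxviruses, by 1.64 ± 0.14 and 1.82 ± 0.17. EIF2AK2, the double-stranded RNA-dependent kinase PKR, rose by 0.88 and IFITM1, which blocks viral entry, by 1.46. IFI27 was at 0.855 and 0.626 CPM against 3.5 and 3.74 CPM, and its change of 2.28 ± 0.28 lost its call without untreated replicate 2 (2.05 to 2.51 over the libraries left out).

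ISG15 is a ubiquitin-like protein that is attached to other proteins. Of the 6 genes of that pathway 3 rose, at a median of 0.80: HERC6 by 1.95 ± 0.15, the conjugating enzyme UBE2L6 by 0.73 and the ligase HERC5 by 0.58. UBE2L6 lost its call without untreated replicate 2, interferon replicate 2 or doxycycline replicate 2 (0.57 to 0.88), and HERC5 without any library of the untreated, interferon or doxycycline groups (0.51 to 0.66). ISG15 itself was read at 16.3 and 11.7 CPM against 27.3 and 50.1 CPM. The doxycycline libraries of ISG15 differed widely from each other, and its change of 1.46 ± 0.35 was not called (adjusted p = 0.10). USP18, the protease that removes ISG15, was not called either (0.67 ± 0.16, adjusted p = 0.11). Among 7 genes of the PARP9 and DTX3L group 5 rose, led by ZC3HAV1, the antiviral protein that binds CpG-rich RNA, at 1.37 ± 0.10, and PARP9 at 1.23 ± 0.10.

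**Figure D1:**
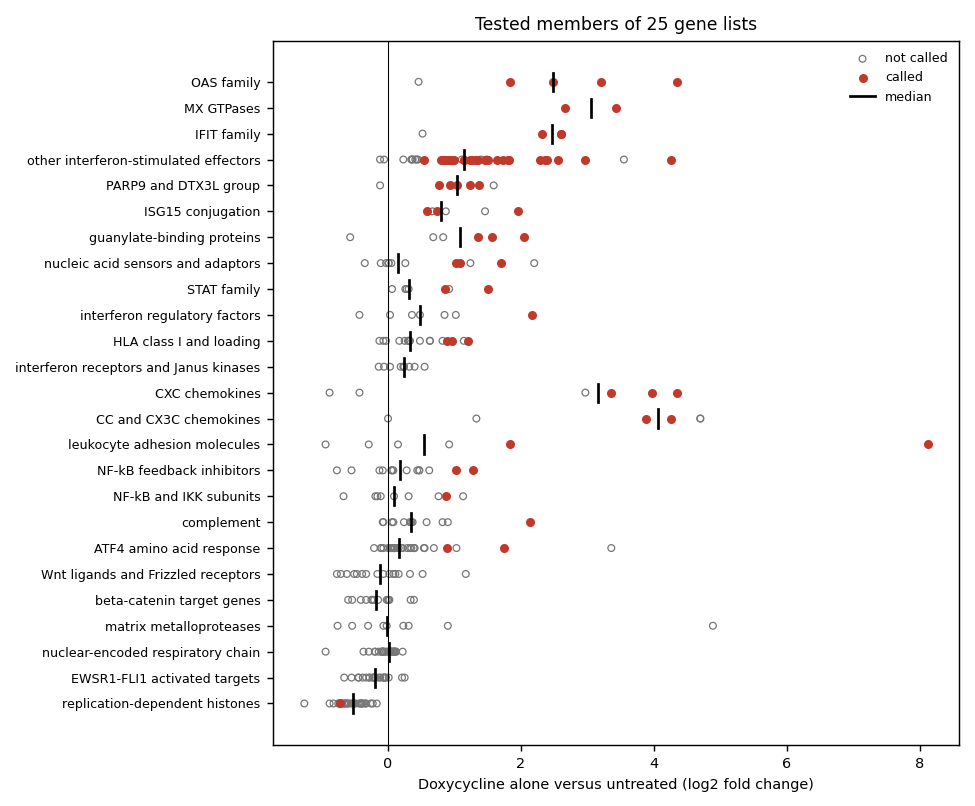
Log2 fold change of doxycycline alone against untreated for each tested member of 25 gene lists, 1 row per list. Filled points are genes called at an adjusted p under 0.05, open points are genes not called, and the black bar is the list's median. Filled points lie mostly in the antiviral rows at the top and in the chemokine rows, and the rows for Wnt ligands, metalloproteases, the respiratory chain and EWSR1-FLI1 targets hold open points only.

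Guanylate-binding proteins attack the membranes around intracellular pathogens. GBP2 stood at 2.75 and 2.77 CPM in untreated cells and at 12.1 and 10.9 CPM with doxycycline, and rose by 2.05 ± 0.21 on the log2 scale (edgeR adjusted p = 0.00045). GBP1 rose by 1.35 ± 0.12. GBP3 rose by 1.57 ± 0.21 and lost its call without untreated replicate 2 (1.38 to 1.76). The other 3 tested members were not called, and the median of the 6 was 1.09. In antigen presentation by HLA class I, 3 of 17 genes rose at a median of 0.33: the peptide transporter TAP1 by 1.20 ± 0.13, the class I chain HLA-B by 0.97 ± 0.12 and the trimming peptidase ERAP2 by 0.88 ± 0.13. ERAP2 lost its call without untreated replicate 2 or doxycycline replicate 1 (0.72 to 1.04). HLA genes are alike in sequence and polymorphic, so the value of HLA-B is uncertain. B2M, the light chain of class I molecules, was not called (0.31 ± 0.10). PSMB9, an inducible subunit of the immunoproteasome, was at 0.285 and 0.0895 CPM against 1.25 and 2.55 CPM. Its change of 3.28 ± 0.57 was called (adjusted p = 0.023), but moved to 4.24 and 2.67 without untreated replicates 1 and 2 and to 2.69 without doxycycline replicate 2, and was not called in these 3 fits or without either interferon library.

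The signalling proteins of the interferon pathway moved unequally. IRF9 was at 5.89 and 6.44 CPM in untreated cells and at 27.8 and 27.7 CPM with doxycycline (2.17 ± 0.16, edgeR adjusted p = 2.6e-05). STAT2 rose by 0.85 ± 0.12. STAT3, the mediator of interleukin 6 signals, was at 151 and 153 CPM against 189 and 189 CPM and was not called (0.31 ± 0.08, adjusted p = 0.11). None of 10 interferon receptor and Janus kinase genes was called, at a median of 0.23. JAK1 stood at 824 and 934 CPM against 866 and 822 CPM, a change of -0.06 ± 0.10, and the receptor chain IFNAR1 changed by 0.03 ± 0.15. IRF1, which is induced by interferon gamma, changed by 0.36 ± 0.22 and was not called, nor was IRF7, the regulator of interferon alpha genes (1.02 ± 0.34, adjusted p = 0.24). None of 8 tested feedback inhibitors of this pathway was called.

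Interferon genes themselves were hardly read. Of 21 in the table none had enough reads to be tested, and 14 had 0 reads in all 4 libraries. Their summed reads were 4 and 7 in untreated cells and 6 and 9 with doxycycline. IFNB1, the gene for interferon beta, had 1 read, in doxycycline replicate 1. At this depth a difference in these genes was not detectable.

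Nucleic acid sensors detect viral RNA and DNA in the cytosol and in endosomes. DDX58, which encodes RIG-I, was at 31.4 and 30.6 CPM in untreated cells and at 109 and 93.4 CPM with doxycycline (1.70 ± 0.12, edgeR adjusted p = 2e-05). IFIH1, which encodes MDA5, was at 24.6 and 26.4 CPM against 54.3 and 53.5 CPM (1.08 ± 0.12). TLR3, the endosomal receptor of double-stranded RNA, rose by 1.02 ± 0.19, and lost its call without either untreated or interferon library or without doxycycline replicate 1 (0.87 to 1.16). The other 9 tested sensors and adaptors were not called, and the median of the 12 was 0.15.

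SELE, which encodes the adhesion molecule E-selectin, had 0 reads in either untreated library and 43 and 35 reads with doxycycline, or 3.59 and 2.97 CPM. With untreated cells set to a floor of 3 reads for the group, it was at least 23.8-fold higher, and at least 12.2- and 11.5-fold higher without untreated replicates 1 and 2 (edgeR adjusted p = 0.0019 with all libraries). E-selectin is known from cytokine-activated endothelium. Of 10 endothelial markers the 2 with enough reads, EMCN (0.09 ± 0.12) and ESAM (0.43 ± 0.34), were not called, and PECAM1, the defining surface marker, had at most 1 read in a library. TNFRSF9, a co-stimulatory receptor also called 4-1BB, had 1 and 0 reads in untreated cells and 61 and 56 reads with doxycycline. By reads it was 107-fold higher, with an exact 95% counting interval from 18.8 to 4259 (edgeR adjusted p = 0.00075). Leaving out untreated replicate 1 made it at least 18.3-fold higher, and leaving out untreated replicate 2 51.9-fold (9.13 to 2066). No other gene among 18 tested TNF receptor genes was called.

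Promoters of SELE, TNFRSF9 and NFKBIA are printed because each holds a match to the kappa-B consensus, and that of CXCL10 because it holds matches to both motifs. Capitals again mark the matches, here to either motif on either strand. In TNFRSF9 the 2 kappa-B matches overlap and start at -74 and -73, in SELE the match starts at -94 and in NFKBIA at -81. In CXCL10 the response element match starts at -221 and the kappa-B matches at -177 and -122. The stretches are chr1:169734134-169734203 for SELE, chr1:7940873-7940943 for TNFRSF9, chr14:35404791-35404860 for NFKBIA and chr4:76023590-76023738 for CXCL10, all on the - strand of GRCh38.p14 (RefSeq).
SELE: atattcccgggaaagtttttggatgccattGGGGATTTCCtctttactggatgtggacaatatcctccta
TNFRSF9: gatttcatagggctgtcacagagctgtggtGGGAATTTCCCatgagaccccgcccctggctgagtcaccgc
NFKBIA: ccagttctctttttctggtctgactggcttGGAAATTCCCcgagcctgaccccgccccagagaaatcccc
CXCL10: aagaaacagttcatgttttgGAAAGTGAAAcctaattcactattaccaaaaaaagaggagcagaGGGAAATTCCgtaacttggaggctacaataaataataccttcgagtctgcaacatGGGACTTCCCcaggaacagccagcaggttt

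CXCL10, a ligand of the T cell receptor CXCR3, was at 1.04 and 1.97 CPM in untreated cells and at 34.9 and 27.7 CPM with doxycycline. It rose 20.5-fold, by 4.35 ± 0.31 on the log2 scale (edgeR adjusted p = 2.6e-05). CXCL11, a second ligand of that receptor, had 2 and 2 reads against 36 and 37 (3.98 ± 0.51), and lost its call without untreated replicate 2 (3.92 to 4.02). CXCL9, the remaining ligand, had 1 and 1 reads against 9 and 10 and was not called (adjusted p = 0.059). The values of CXCL11 and CXCL9 rest on very few reads. CCL5, which draws T cells and monocytes, had 2 and 0 reads in untreated cells and 22 and 25 with doxycycline. By reads it was 21.5-fold higher (5.62 to 183). Without untreated replicate 1 this became at least 7.37-fold, and without untreated replicate 2 it became 10.4-fold (2.73 to 88.5). Its call was lost without untreated replicate 2 or doxycycline replicate 2. The neutrophil chemokine IL8 had 1 and 1 reads against 14 and 11, and CCL4, which is hard to tell from its near-identical copy CCL4L2, had 0 and 1 reads against 10 and 10. IL8 and CCL4 lost their calls without each of the 8 libraries in turn. In all 3 of 6 tested CXC and 2 of 6 tested CC and CX3C chemokines rose, and the median of the latter was 1.21 with 2 genes of 0 untreated reads set to their lower bound.

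NFKBIA, the inhibitor that NF-kB itself induces, was at 26.3 and 26.3 CPM in untreated cells and at 64.4 and 63.2 CPM with doxycycline. It rose 2.42-fold, by 1.28 ± 0.09 on the log2 scale (edgeR adjusted p = 2.6e-05), and the change stayed between 1.26 and 1.29 over the libraries left out. ICAM1, the ligand of leukocyte integrins, was at 6.46 and 3.58 CPM against 15.4 and 20.4 CPM (1.84 ± 0.25), and lost its call without untreated replicate 2 (1.45 to 2.32). VCAM1, its relative, was at 3.42 and 3.58 CPM against 8.34 and 4.93 CPM and was not called (adjusted p = 0.17). The doxycycline libraries of VCAM1 differed from each other more than the lower one did from untreated cells. BIRC3, an apoptosis inhibitor of the TNF receptor complex, rose by 1.02 ± 0.19 and the NF-kB subunit gene NFKB1 by 0.87 ± 0.13. BIRC3 lost its call without any library of the untreated, interferon or doxycycline groups (0.82 to 1.22), and NFKB1 without either untreated library or doxycycline replicate 1 (0.79 to 0.93). RELA, the transactivating subunit, was at 41.1 and 39.1 CPM against 33.4 and 38.2 CPM, a change of -0.16 ± 0.14 that was not called. Of 9 NF-kB and IKK subunit genes 1 rose, and of 14 feedback inhibitors 2, at medians of 0.09 and 0.18.

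C3, the central complement component, was at 2.09 and 1.07 CPM in untreated cells and at 7.09 and 6.8 CPM with doxycycline (2.14 ± 0.27, edgeR adjusted p = 0.0021). No other gene among 12 tested complement genes was called. OPTN, which encodes the autophagy receptor optineurin, was at 10.1 and 8.5 CPM against 35.8 and 35.5 CPM (1.94 ± 0.14, edgeR adjusted p = 2.4e-05). IL32, an intracellular cytokine of lymphocytes and tumour cells, rose by 2.08 ± 0.33, and lost its call without untreated replicate 2 or doxycycline replicate 1 (1.72 to 2.49). TNF was not called at 0.19 and 0.358 CPM against 1.17 and 1.87 CPM (2.41 ± 0.58, adjusted p = 0.10), and neither was TNFSF10, the death ligand TRAIL (1.40 ± 0.39, adjusted p = 0.15).

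Amino acid shortage and stress on the endoplasmic reticulum act through the transcription factor ATF4 and its CARE motif. ASNS, asparagine synthetase, was at 53.3 and 50.5 CPM in untreated cells and at 95.4 and 96 CPM with doxycycline. It rose 1.85-fold, by 0.88 ± 0.10 on the log2 scale (edgeR adjusted p = 0.00075; 0.83 to 0.92 over the libraries left out). CHAC1, which degrades glutathione, rose by 1.75 ± 0.28, and lost its call without either untreated library or doxycycline replicate 2 (1.66 to 1.83). The other 29 of 31 tested genes of the amino acid response were not called, and the list's median was 0.16. DDIT3, which encodes CHOP, was among them at 0.29 ± 0.11. None of 16 endoplasmic reticulum folding genes was called, at a median of -0.01. The ASNS promoter (RefSeq, GRCh38.p14 chr7:97872439-97872506, - strand) is printed with its match to TGATGNAA in capitals, which starts at -68.
ASNS: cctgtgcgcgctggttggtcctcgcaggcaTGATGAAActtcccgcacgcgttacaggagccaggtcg

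Several pathways with a known link to USP6 held no gene called against untreated cells. USP6 is known to stabilise Frizzled receptors and to act on Wnt signalling, and it has been tied to matrix metalloproteases in bone cysts. Only RNA was measured here, so a change in the stability of receptor proteins was not tested. None of 16 tested Wnt ligands and Frizzled receptors was called (median -0.12), nor any of 14 beta-catenin target genes (median -0.18). AXIN2, the standard reporter of that pathway, was at 11.9 and 9.49 CPM against 11 and 10.6 CPM, a change of 0.02 ± 0.18. None of 9 tested metalloproteases was called against untreated cells. MMP2 was at 12.2 and 10.2 CPM against 21 and 20.7 CPM, and its change of 0.90 ± 0.22 missed the threshold (edgeR adjusted p = 0.10). MMP9 changed by 0.23 ± 0.50. MMP2 was called against interferon alone, where it stood at 10.1 and 8.13 CPM (1.20 ± 0.22, edgeR adjusted p = 0.016), a call lost without any library of these groups (1.03 to 1.34). MMP13, a collagenase, had 0 reads in both untreated libraries and 2 and 6 with doxycycline, and was called with doxycycline in interferon-treated cells, from 2 and 10 reads to 252 and 178 (5.23 ± 0.43, edgeR adjusted p = 0.00018). Among 23 targets that the Ewing fusion protein EWSR1-FLI1 is known to activate and 17 that it represses, none was called, at medians of -0.20 and 0.00. SOX2 was the activated target with the smallest p, at 50 and 47.2 CPM against 34.7 and 31.7 CPM (-0.55 ± 0.11, adjusted p = 0.056). NKX2-2, a transcription factor of the Ewing phenotype, changed by -0.66 ± 0.18 and was not called. None of 22 glycolysis, 31 respiratory chain, 32 ribosomal protein, 21 cholesterol, 25 replication or 20 mitosis genes was called either, although 1993 genes of the whole comparison had an unadjusted p under 0.05. The medians of these lists were, in that order, -0.23, 0.02, -0.01, 0.02, -0.20 and 0.12. In the same order 5, 16, 15, 13, 3 and 17 genes had a positive change, against 7340 of all 14601 tested.

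Of the 14 genes that fell, 0 kept the call without each library in turn, against 54 of the 105 that rose. TUBB3, a neuronal tubulin, was at 33.9 and 31.2 CPM in untreated cells and at 10.6 and 15.8 CPM with doxycycline (-1.30 ± 0.24, edgeR adjusted p = 0.037). KRT17, a keratin, was at 33.1 and 33.1 CPM against 12.3 and 16.6 CPM (-1.20 ± 0.19). ROBO2, an axon guidance receptor, was at 25.6 and 27.8 CPM against 16.9 and 14.4 CPM (-0.78 ± 0.14). As for every called gene, the groups did not overlap for these 3 genes. The others were HIST1H4L, HIST1H2AB, HIST1H2AD, HIST2H2BF, HIST2H2AB and H2AFY2, which encode histones or a histone variant, AEN, a nuclease induced by p53, and LYPD1, DPH2, GAS1 and PKP1, at changes between -0.90 and -0.53. All 14 lost the call without untreated replicate 1, without untreated replicate 2 and without doxycycline replicate 1. Over all the libraries left out in turn, TUBB3 ranged from -1.62 to -1.04, KRT17 from -1.42 to -1.0 and ROBO2 from -0.89 to -0.67. Under the GC correction GAS1, HIST1H2AB and HIST2H2AB lost their calls, and the median GC content of the 14 was 57.5% against 48.8% for all genes tested and 44.3% for the 105 that rose. A list of 30 replication-dependent histone genes held 1 of the called ones, HIST1H2AB, and not the other 4. All 30 had a negative change, with a median of -0.53. These genes are near-identical copies, so single values are uncertain.

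**Figure D2:**
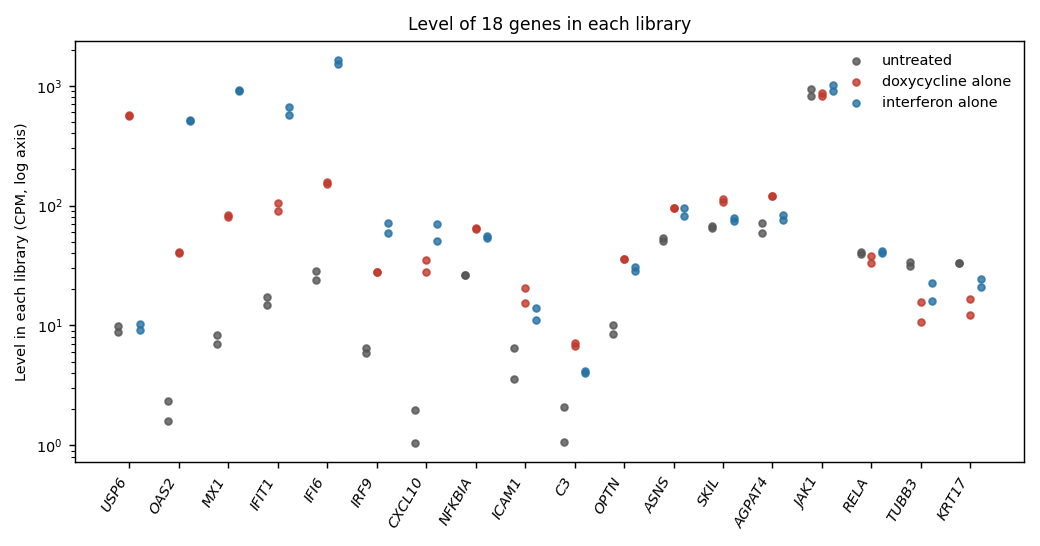
Level of 18 genes in CPM, on a log axis, in the untreated, doxycycline alone and interferon alone libraries. Each point is 1 library, 2 per group. USP6 is high only in the doxycycline libraries shown, and OAS2, MX1, IFIT1 and IFI6 lie between untreated and interferon. The doxycycline points of NFKBIA, C3 and OPTN lie above the interferon libraries, but these genes were not called against interferon alone.

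Doxycycline alone was also compared directly with interferon alone, to see how far each gene went toward its level under the cytokine. This comparison had 430 called genes, 2.95% of those tested, with 160 higher (1.1%) and 270 lower (1.85%) under doxycycline. The doxycycline libraries entered both comparisons, so a library that happened to be high would raise a gene in both. Of the 105 genes that rose with doxycycline, 65 were lower than under interferon, 30 were not called and 10 were higher. The median log2 change with doxycycline was 1.35, 0.93 and 0.97 in these sets. Set beside it, the change with interferon against the same untreated libraries had medians of 3.25, 0.54 and 0.21.

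Antiviral effectors were in the lower set. OAS2 stood at 515 and 511 CPM under interferon, MX1 at 899 and 928 CPM and IFI27 at 181 and 164 CPM, and with doxycycline they were lower by -3.66 ± 0.10, -3.48 ± 0.10 and -5.57 ± 0.14 on the log2 scale (edgeR adjusted p = 4.7e-09, 4.7e-09 and 2.6e-09). IRF9 was lower by -1.23 ± 0.13. The call of 61 of the 65 held without each library in turn. The exceptions were APOL2, LAMP3, ZC3HAV1 (-0.62 to -0.47) and CXCL10. CXCL10 was at 51 and 69.6 CPM under interferon and lower by -0.95 ± 0.19 with doxycycline (adjusted p = 0.022), a call lost without interferon replicate 2 or doxycycline replicate 2 (-1.18 to -0.72). APOL2 (-0.75 to -0.69) lost it without either interferon library or doxycycline replicate 1, ZC3HAV1 without interferon replicate 1 or either doxycycline library, and LAMP3 (-0.96 to -0.91) without interferon replicate 2 or either doxycycline library.

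SELE and USP6 were higher with doxycycline than with interferon in every fit. SELE had 0 and 4 reads under interferon against 43 and 35 with doxycycline (edgeR adjusted p = 0.0038). USP6 was at 9.17 and 10.3 CPM under interferon, 5.85 ± 0.11 below its doxycycline level on the log2 scale. TNFRSF9, with 7 and 23 reads under interferon, was higher by 1.75 ± 0.38 (adjusted p = 0.034), and lost that call without interferon replicate 1, either doxycycline library or either library with both treatments (1.14 to 2.78). IL32 was higher by 1.41 (1.26 to 1.54 over the libraries left out), and RAB31, a small GTPase of vesicle transport, by 0.91 (0.71 to 1.09). The SMAD co-repressor gene SKIL was higher by 0.52 (0.46 to 0.56), AGPAT4, an acyltransferase, by 0.59 (0.51 to 0.63), FSTL1 by 0.44 (0.35 to 0.52), GNG12 by 0.52 (0.43 to 0.59) and KLHL24 by 0.75 (0.55 to 0.94). IL32, RAB31, AGPAT4, SKIL, FSTL1 and GNG12 lost these calls without any interferon or doxycycline library, and KLHL24 without interferon replicate 2 or either doxycycline library. SKIL was at 64.4 and 67.8 CPM in untreated cells, 74.9 and 78.3 CPM under interferon and 113 and 107 CPM with doxycycline, so its highest libraries were the doxycycline ones.

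The remaining 30 genes were not called against interferon. Of these, NFKBIA stood at 53.5 and 55.8 CPM under interferon (0.22 ± 0.09, adjusted p = 0.23), GBP2 at 8.38 and 11.9 CPM (0.18 ± 0.18), OPTN at 30.9 and 28.4 CPM (0.27 ± 0.12) and C3 at 4.19 and 4.02 CPM (0.76 ± 0.23). ASNS was at 82.1 and 95.2 CPM (0.11 ± 0.09) and ICAM1 at 13.9 and 11.2 CPM (0.51 ± 0.22). CCL5, CXCL11, CCL4, IL8 and CHAC1 were also in this set. A missed threshold does not show that these levels were equal.

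**Figure D3:**
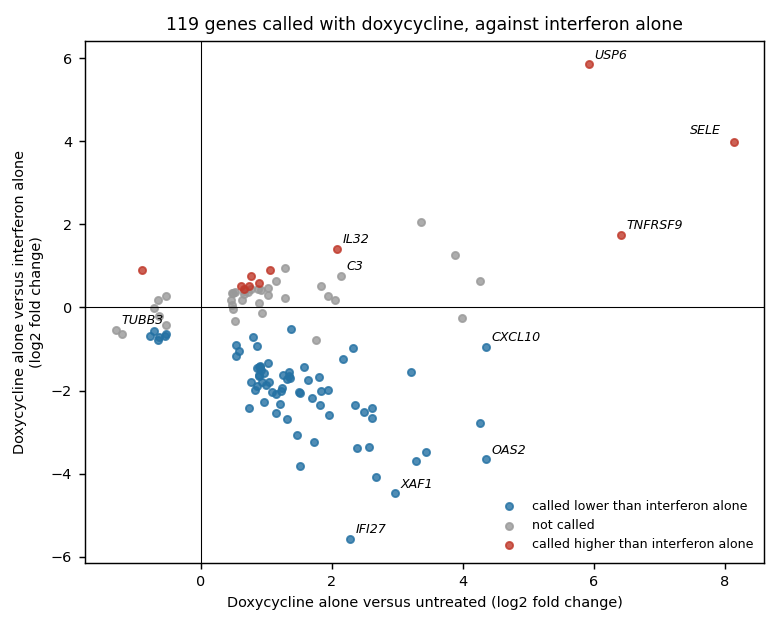
The 119 genes called with doxycycline against untreated (x axis, log2 fold change) and their log2 fold change against interferon alone (y axis), 1 point per gene. Colour marks the call against interferon alone. IFI27 and OAS2 lie far below 0 on the y axis, and USP6 and SELE, at 5.85 and 3.99, are the highest points.

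The promoter windows of these sets, 250 bases before to 50 after the start site, differed in their motifs. A window was found for 88 of the 105 genes and for 11372 of those tested. The response element was matched in 29 of the 88 (33%) and in 348 of all 11372 (3.06%). All 29 were among the 54 windows of genes lower than under interferon (53.7%), and 0 were among the 24 and 10 windows of the other sets. The kappa-B consensus was matched in 8 of the 54 (14.8%), 6 of the 24 (25%) and 4 of the 10 (40%), against 739 of all windows (6.5%). The 4 were SELE, TNFRSF9, IL32 and FSTL1, and all but SELE lost the call above interferon without at least 1 library. The 10 windows include that of the native USP6 gene, which held no match. The introduced USP6 was under the control of doxycycline, so its rise does not bear on that window. TGATGNAA was matched in 2, 3 and 0 windows of the sets, the 3 being ASNS, ATF3 and CHAC1, and in 1.81% of all. None of the 13 windows of genes that fell held a response element or kappa-B match. Both strands were searched, and a response element overlapped a TGATGNAA match in 1 of all windows, while no kappa-B match overlapped a match to another motif. Windows were chosen with the genes' values known, a match does not show binding, and a window without one says nothing of sites elsewhere.

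**Figure D4:**
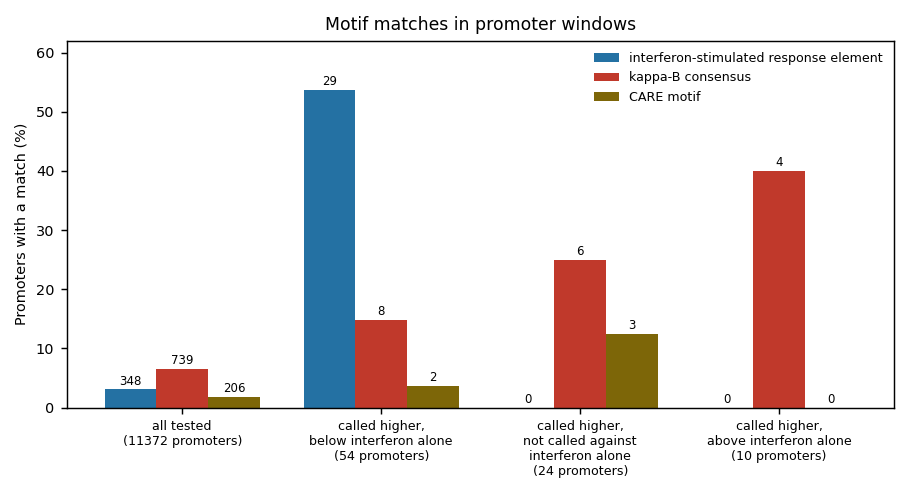
Share of promoter windows with a match to each of 3 motifs (percent, axis from 0), for all genes tested and for the 3 sets of genes that rose with doxycycline. Numbers above the bars count windows with a match. The response element bar reaches 53.7% in the set below interferon alone and 0 in the other sets that rose. The kappa-B bar is 40% in the set above interferon alone, which holds 10 windows, among them that of the native USP6 gene. Genes of that set other than SELE and USP6 lost the call above interferon without at least 1 library.

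The effect of doxycycline was measured a second time in the 4 libraries with interferon, which are not among the libraries contrasted in the first comparison. All 8 libraries shared 1 fit and its estimate of spread, so the calls of these comparisons are not independent. There 196 genes were called, 1.34% of those tested, 156 higher (1.07%) and 40 lower (0.274%). Of the 105 genes that rose without interferon, 48 rose again, 0 fell, and 101 had the same sign (96.2%, against 75.2% of all genes tested). GC content also trended with doxycycline in these libraries, at a rho of -0.64 and 0.05 with both treatments and of 0.31 and 0.03 with interferon alone, and its part in the shared signs was not tested. USP6 rose again, by 5.33 ± 0.11. Of the 65, 30 and 10 genes of the sets above, 21, 20 and 7 rose again. Of the 14 genes that fell without interferon, 5 fell again (35.7%), 0 rose and all 14 had the same sign. The 5 were KRT17 (-1.23 ± 0.21, edgeR adjusted p = 0.017), HIST1H2AB, HIST1H2AD, GAS1 and LYPD1, and each lost this call without interferon replicate 2 or the first replicate with both treatments. On the histone list 13 of 30 genes were called lower (median -0.71).

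SELE, C3, NFKBIA, CXCL10, CXCL11, GBP2, ICAM1 and IL8 rose in both settings. On the lists for chemokines and NF-kB genes, 3 of 6 tested CXC chemokines rose without interferon and 4 with it, 2 and 5 of 6 CC and CX3C chemokines, 2 and 6 of 14 NF-kB feedback inhibitors, and 1 and 2 of 9 NF-kB and IKK subunits. SELE was at 31.9 and 31.3 CPM with both treatments, C3 at 35 and 39.6 CPM and NFKBIA, which rose by 1.56 ± 0.09 (edgeR adjusted p = 2.7e-06), at 160 and 163 CPM. With interferon CXCL10 rose from 51 and 69.6 to 2785 and 2176 CPM, by 5.36 ± 0.20 (adjusted p = 8.6e-08), and CXCL11 by 6.44 ± 0.18. GBP2 rose by 3.04 ± 0.17, C3 by 3.18 ± 0.21, ICAM1 by 2.70 ± 0.21 and IL8 by 4.39 ± 0.41. The calls of these 8 genes held without each library in turn in this setting, unlike those of CXCL11, ICAM1 and IL8 without interferon. The difference between the doxycycline effects was not called for any of them (adjusted p = 1).

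The doxycycline effect without interferon exceeded that with interferon for 24 genes and was below it for 1, which is 0.164% and 0.00685% of those tested. All 24 were among the 105. On the list of 44 other effectors 31 genes rose without interferon and 11 with it, and the difference was called for 11. Of 4 IFIT genes 3 rose without interferon, 2 with it and 2 differed, and of the 2 MX genes both rose without it, 1 with it and both differed. OAS2 stood at 515 and 511 CPM under interferon and at 679 and 630 CPM with both treatments, a change of 0.35 ± 0.09 that was not called, and the difference from its effect without interferon was 4.0 ± 0.19 (edgeR adjusted p = 2.1e-06). For MX1 the effect with interferon was 0.17 ± 0.09 and the difference 3.25 ± 0.15. For IFI6 these were 0.14 ± 0.09 and 2.42 ± 0.15. Other effectors rose in both settings: IFIT2 by 2.32 ± 0.14 without and 2.30 ± 0.11 with interferon, OASL by 3.20 ± 0.31 and 1.97 ± 0.16, and RSAD2 by 1.73 ± 0.19 and 1.34 ± 0.11, with no called difference (adjusted p = 1). MX2 rose in both, by 2.67 ± 0.22 and 0.73 ± 0.09, and the difference was called (1.94 ± 0.25), but its call with interferon was lost without either interferon library (0.67 to 0.78). OAS1, EPSTI1, IFI44L, IFIT1, HERC6 and IRF9 also kept the call of a difference without each library in turn, at differences between 1.87 and 3.75. The other 15 genes of the 24 lost it without at least 1 library.

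**Figure D5:**
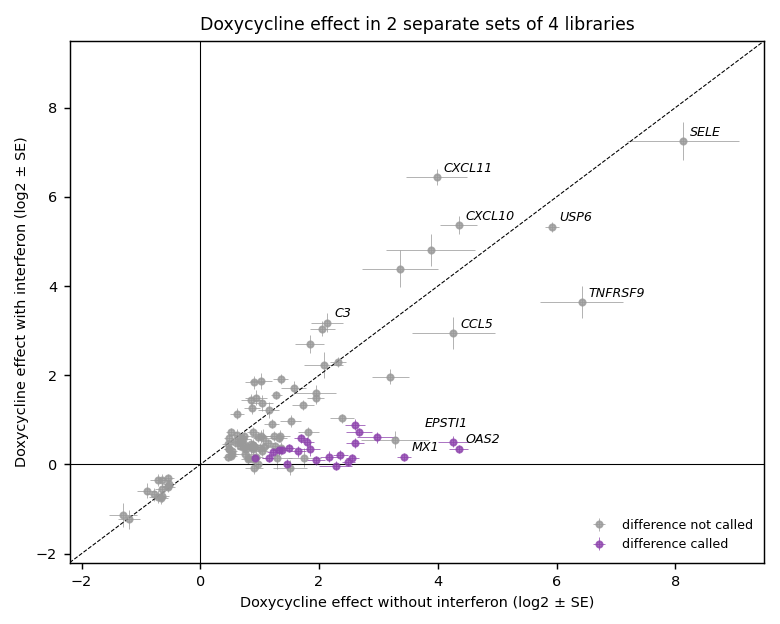
Log2 fold change with doxycycline in cells without interferon (x axis) and with interferon (y axis) for the 119 genes called without it. Bars are ± 1 SE, the dashed line marks equal effects, and purple marks genes whose difference was called. OAS2, MX1 and EPSTI1 lie near 0 on the y axis, and SELE, USP6 and CXCL10 lie between 5.33 and 7.25 on it.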

How the data were processed

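Gene counts came from RNA sequencing of 8 libraries of RD-ES/USP6 cells, made per the labels' protocols with a stranded total RNA kit after trizol extraction. The authors deposited raw counts of reads for 34917 transcripts of 22257 symbols, not normalised, and the deposited table also marks 1 transcript per gene in a column of no stated unit, used only in an alternative. The submitters' processing notes name CASAVA 1.8.2, edgeR and the build hg19. The aligner, the counter and its strand setting were not given in the sources used here. No row lacked a gene name.

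Per symbol (30.36% had several rows) the transcript row with the highest total was kept, so that reads shared by transcripts of 1 gene were not added up. The test was edgeR 4.0.16 (R 4.3.3): TMM (factors 0.977 to 1.026), the default filter on low counts, 1 mean per group, all 8 libraries in 1 quasi-likelihood fit (4 residual degrees of freedom, prior 6.9, common biological coefficient of variation 0.097), and Benjamini-Hochberg adjustment over 14601 genes at 0.05. An SE is the log2 fold change divided by the square root of F. Levels are CPM of these rows, n = 2 libraries per group. Folds of genes with 0 untreated reads are bounds against 3 reads over the group, and those with 1 to 3 reads have exact 95% binomial intervals, which cover counting error only. Replicates were not duplicates, since chi-square values of their counts were 4.1 to 8.57 per degree of freedom.

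Members and the 51 gene lists were chosen with earlier results of these data known, and no set test was run. Named genes were USP6, the 20 highest changes with a mean of at least 1 CPM, every gene that fell, up to 8 called members of a list (else 3 of smallest p), and genes called in the other comparisons. Some genes are not reported here, though they stay in the tests, counts and medians. Not every gene that this rule names is described, and genes outside it, such as PECAM1, USP32 and DDIT3, were chosen after their values were seen. Promoters were matched by symbol to RefSeq (GRCh38.p14). GC content and transcript length came from GENCODE v29 and were used in a loess correction of each library (span 0.3). Alternatives were that correction, DESeq2 1.42.0, relative log expression factors, no filter and a stricter one (mean 1 CPM and 50 reads), only the groups compared, a minimum of 1.5-fold, the sum of a gene's rows, a block for the replicate number, and leaving out each library, where a lone library is assumed to vary like the others. A crossed block and the marked rows were added after seeing the data. The scripts were tested on simulated data.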

Additional observations from a re-analysis of the deposited data

Results flagged for a closer look

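For 25 genes the log2 effect of doxycycline without interferon differed from that with interferon by edgeR's test of the difference (adjusted p under 0.05). The difference was 4.0 for OAS2, 3.75 for EPSTI1, 3.25 for MX1, 2.43 for OAS1, 2.42 for IFI6, 2.14 for IFI44L, 2.13 for IFIT1, 1.99 for IRF9 and 1.87 for HERC6, and the call of these 9 held without each library in turn. It was 2.36 for XAF1, 2.31 for IFI27, 1.94 for MX2, 1.72 for IFIT3, 1.49 for OAS3, 1.46 for IFITM1, 1.35 for SAMD9 and 1.30 for DDX60. It was 1.11 for DDX58, 1.06 for ZC3HAV1, 1.01 for both PLSCR1 and IFI44, 0.95 for PARP9 and 0.77 for SP110. These genes lost the call without at least 1 library, and XAF1 (2.12 to 2.62) and SP110 (0.69 to 0.83) without each of the 8. WARS, the tryptophan tRNA synthetase, was the single gene with the larger effect under interferon, at a difference of -1.07 (-1.26 to -0.92). WARS lost this call without either untreated library, interferon replicate 1, either doxycycline library or the first replicate with both treatments. With the replicate number as a block it was not called either. It was at 55.1 and 62.3 CPM in untreated cells and 61.1 and 53.8 CPM with doxycycline, and at 73.9 and 93.1 CPM under interferon and 173 and 170 CPM with both treatments.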

How the results depend on the processing

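No gene called with doxycycline alone changed the sign of its change under any alternative run in which it was tested. Of the values for single genes under these alternatives, 1856 of 2373 stayed on their side of the threshold and 517 were no longer called. The counts of called genes, 119 with doxycycline alone, 196 with doxycycline under interferon, 25 for the difference of these effects and 430 against interferon alone, moved by less than 1.5 times under relative log expression factors, the stricter filter, summed rows and the marked rows. In the same order, with the GC correction they were 543, 613, 51 and 1639, and with a minimum of 1.5-fold 50, 55, 12 and 116. DESeq2 gave 242, 302 and 42 for the first 3, no filter 207 for the first, and only the groups compared 78 for the first and 933 against interferon alone. Without single libraries the counts ranged from 54 to 131, 46 to 266, 9 to 20 and 134 to 558. The first was 54 without untreated replicate 2, 71 without doxycycline replicate 1 and 78 without interferon replicate 2. The cause of these moves was not tested. Replicate numbers did not pair the samples across all groups: the correlation of replicate 1 minus 2 between groups ran from -0.35 to 0.45. It was 0.34 between the groups without doxycycline and 0.45 between the groups with it. Between groups that differed in doxycycline it ran from -0.35 to -0.12. The source of this pattern was not tested. With the replicate number as a block the counts were 121, 173, 17 and 350, and with the block and the GC correction 749, 806, 52 and 1930. A crossed pairing, chosen after seeing the data, gave 1252, 1497, 53 and 1821. Of these 574, 737, 43 and 915 were higher, and 678, 760, 10 and 906 lower. Higher calls did not outnumber lower ones in the first 2 there, and lower calls did not outnumber higher ones against interferon alone. At 3 reads per library of 0.25 to 0.322 CPM, the untreated levels of SELE, TNFRSF9, CXCL11, CCL4, CCL5, IL8 and the interferon genes were near the limit of detection.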
